A study of Mus musculus with 8 samples.

Results

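The interferon-inducible p200 family, also called PYHIN, is a cluster of DNA-binding proteins of the innate immune system that sit side by side on mouse chromosome 1. Members were taken by gene symbol: Ifi202b, Ifi203, Ifi204, Ifi205, Mnda, Mndal and Aim2. Of these 7 symbols, 6 were found among 24675 named genes of the array. Mnda was not found under that symbol, and RefSeq gives it as a synonym of Ifi211, which was measured and is described with the other PYHIN genes. The members were chosen with results of the diet contrast already known, so their differences between diets are descriptions, and the calls counted among them are no independent support.

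The series compared tumors of mice on a high fat high cholesterol diet (HFHCD, enriched in cocoa butter and cholesterol, called HFD in the sample titles) with tumors of mice on a chow diet (CD), with 4 tumors per diet. All mice were female C57BL/6J. They received B16-F10 cells under the skin of the flank at 9 weeks of age, after 2 weeks on their diet. Switching back to chow at injection was a separate experiment of the study. The B16-F10 line is a melanoma of C57BL/6 origin. Whole tumors were taken at day 9, and their total RNA was run on Affymetrix MouseGene2.0ST arrays, which give 1 log2 value per gene after RMA (a method that corrects background, equalises the arrays and summarises the probes of a gene). Tumors are named here by diet and replicate number. A log2 difference of 1 is a doubling, and every difference is HFHCD minus CD.

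Most PYHIN proteins carry a pyrin domain, which binds other pyrin domains, and 1 or more HIN-200 domains, which bind double-stranded DNA. AIM2 senses DNA in the cytosol and assembles an inflammasome with ASC and caspase-1. IFI204, a mouse relative of human IFI16, has been linked to DNA sensing through STING, and p202, the product of Ifi202b, lacks a pyrin domain and can hold back AIM2. Many of the genes are induced by interferons and are expressed in myeloid cells and lymphocytes, and Ifi202b is known for low expression in the C57BL/6 strain.

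The genes lie next to one another on chromosome 1 of GRCm38.p6. RefSeq orders the protein-coding genes as Aim2, Ifi206, Ifi214, Ifi213, Ifi209, Ifi208, Ifi207, Ifi204, Mndal, Ifi211, Ifi203, Ifi202b and Ifi205, with Cadm3 before them and the olfactory receptor gene Olfr433 after them. Promoter windows from 250 bases before to 50 bases after the annotated start were taken from RefSeq for 12 of the 13 genes, 5 of them members. Short motifs were searched on both strands. They were the core of the interferon-stimulated response element, spelled GAAA, any 2 bases and GAAA again, the gamma-activated site, TTCNNNGAA, and GAGGAAGT, a purine-rich box bound by the myeloid factor PU.1. None of these motifs contains another.

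The interferon response core was found in 3 of the 5 members with a window (Ifi205, Mndal and Ifi203). It was also found in 6 of the 7 other PYHIN genes. A match in any window of a gene counted, and 3.99% of all 27025 genes had one (3.44% of all 32851 promoter windows). The match and 25 bases on each side are given for these genes because all of the windows but that of Ifi214 fall into sets of like sequence. Capitals mark the motif, and every sequence reads 5′ to 3′ along the gene's own strand. The first set holds Ifi205 (chr1:174031855-174031914, minus strand), Ifi211 (chr1:173913049-173913108, minus strand) and Ifi207 (chr1:173741816-173741875, minus strand).
Ifi205: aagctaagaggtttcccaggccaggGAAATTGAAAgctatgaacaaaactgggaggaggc
Ifi211: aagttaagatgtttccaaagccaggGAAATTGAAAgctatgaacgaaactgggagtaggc
Ifi207: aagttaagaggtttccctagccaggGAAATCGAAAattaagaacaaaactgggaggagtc
Ifi205 shared 54 of 60 bases with Ifi211 and 52 of 60 with Ifi207, and Ifi211 and Ifi207 shared 50 of 60.

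The second set holds Mndal (chr1:173880189-173880248, minus strand) and Ifi203 (chr1:173942493-173942552, minus strand), which were identical over all 60 bases.
Mndal: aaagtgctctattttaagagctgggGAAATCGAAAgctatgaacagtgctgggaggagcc
Ifi203: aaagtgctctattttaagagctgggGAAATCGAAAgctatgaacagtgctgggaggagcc
The third set, outside the members, holds Ifi208 (chr1:173673582-173673641, plus strand), whose window was identical to that of Ifi213 and shared 59 of 60 bases with that of Ifi206.
Ifi208: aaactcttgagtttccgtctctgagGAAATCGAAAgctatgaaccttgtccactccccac
Ifi214 (chr1:173536002-173536061, minus strand) belonged to none of these sets, sharing at most 42 of 60 bases with another window.
Ifi214: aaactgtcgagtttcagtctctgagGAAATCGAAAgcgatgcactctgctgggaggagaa
Windows of different sets were less alike than those within a set. Ifi205 shared 40 of 60 bases with Ifi203 and 31 of 60 with Ifi208.

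Ifi202b and Aim2 had no match to the interferon response core in their windows, and each held 1 of the other motifs. Ifi202b (chr1:173982959-173983017, minus strand) had a gamma-activated site 148 bases before its start, a motif found in 8.3% of all windows. Aim2 (chr1:173420466-173420523, plus strand) had a PU.1 box 113 bases before its start, found in 3.2% of all windows.
Ifi202b: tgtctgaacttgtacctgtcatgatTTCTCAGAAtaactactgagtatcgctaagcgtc
Aim2: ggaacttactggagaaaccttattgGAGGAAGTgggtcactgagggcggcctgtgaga
In the plot of motif positions, the core on the gene's own strand lay 134 bases before the start in Ifi205, 36 in Mndal and 35 in Ifi203, where it was found at 1 of 2 annotated starts. Ifi205 had another match on the opposite strand 23 bases after the start, and Mndal had one on the opposite strand in a window from another annotated start. A match is a run of letters and not a measured binding site.

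**Figure D1:**
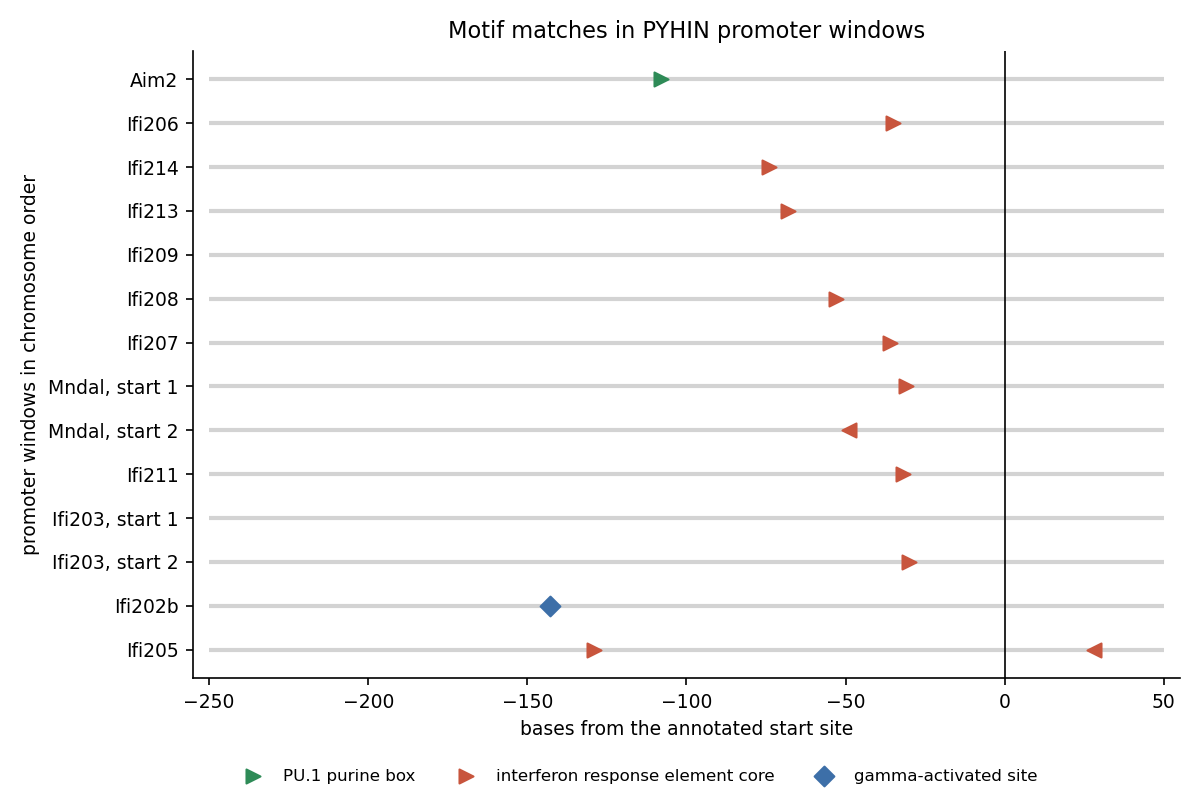
Position of each motif match (symbols, arrowheads pointing along the strand of the match) in the promoter windows of 12 PYHIN genes, in bases from the annotated start site. On the gene's own strand, the interferon response core sits within 79 bases before the start in all 9 genes that have it except Ifi205, where it lies 134 bases before. The diamond is the gamma-activated site, whose pattern TTCNNNGAA matches on both strands alike.

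Ifi205, Ifi204, Mndal and Ifi203 were lower in HFHCD tumors than in CD tumors, by 7.08-fold, 4.02-fold, 2.54-fold and 2.32-fold on the deposited values, whereas Ifi202b and Aim2 did not pass the threshold. At the threshold of the study's methods (an unadjusted p under 0.05 by limma), 4 of 6 members were lower and 0 were higher. Over all genes 3.91% were lower and 4.76% higher. The median log2 difference was -1.28 over the 6 members (-0.77 without CD 3) and 0.00 over all genes. Because the members were chosen on this contrast, nothing is read from these counts. After Benjamini-Hochberg adjustment over all genes, limma called 0 members and 0 genes, and the adjusted p-values of the members ran from 0.410 to 0.945. By the methods' t-test (two-sided) 3 members were lower before adjustment, against 3.39% of all genes, and 0 after it. In 3 of 6 members (Ifi205, Ifi204 and Mndal) all HFHCD values lay below all CD values, as in 2.27% of all genes.

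Ifi205, which encodes the p205 protein that carries both a pyrin and a HIN-200 domain, had the largest difference among the members. Its log2 values were 5.08, 5.82, 5.21 and 4.95 in HFHCD tumors 1 to 4, against 9.30, 6.83, 9.39 and 6.84 in CD tumors 1 to 4. The diets did not overlap, with 1.00 between the highest HFHCD and the lowest CD tumor. CD 1 and CD 3 were about equally high, CD 2 and CD 4 lay close together in between, and the HFHCD tumors spanned 0.88 against 2.56 in CD. Ifi205 averaged 5.27 ± 0.39 in HFHCD tumors and 8.09 ± 1.45 in CD tumors (SD, n = 4 each), a difference of -2.82 (SE 0.60).

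For Ifi204, the gene of the DNA sensor p204, CD 1 and CD 3 were again the highest pair. It had 4.14, 4.45, 3.41 and 3.45 in HFHCD tumors 1 to 4, against 6.91, 4.69, 7.20 and 4.70 in CD tumors 1 to 4. All 4 HFHCD values lay under 4.50, the 40th percentile of all values on the arrays and used here as the level of dim genes, and all 4 CD values lay above it. The gap between the diets was 0.24. Ifi204 averaged 3.86 ± 0.51 in HFHCD tumors and 5.87 ± 1.37 in CD tumors, a difference of -2.01 (SE 0.59). With values under the dim level set to that level, Ifi204 was at least 2.59-fold lower in HFHCD tumors, a setting chosen after the values were seen.

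Mndal, myeloid nuclear differentiation antigen like, is known in mice as an interferon-inducible p200 protein. It had 4.40, 4.78, 4.01 and 4.13 in HFHCD tumors 1 to 4, against 5.79, 5.04, 6.99 and 4.88 in CD tumors 1 to 4. The diets did not overlap, but the gap was only 0.10, between HFHCD 2 and CD 4. Mndal averaged 4.33 ± 0.34 in HFHCD tumors and 5.67 ± 0.96 in CD tumors, a difference of -1.34 (SE 0.42). Of the HFHCD tumors only HFHCD 2 lay above the dim level, and with the others set to that level Mndal was 2.15-fold lower.

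Ifi203, whose promoter window is the one shown above as identical to that of Mndal, had overlapping diets. It had 5.49, 5.94, 4.69 and 5.38 in HFHCD tumors 1 to 4, against 6.33, 5.87, 8.32 and 5.83 in CD tumors 1 to 4. HFHCD 2 lay above CD 2 and CD 4, and CD 3 stood more than any other tumor above the rest. Ifi203 averaged 5.37 ± 0.51 in HFHCD tumors and 6.59 ± 1.18 in CD tumors, a difference of -1.22 (SE 0.52). This call was lost when HFHCD 1, HFHCD 3, HFHCD 4 or CD 1 was left out, and without CD 3 the difference was -0.64.

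**Figure D2:**
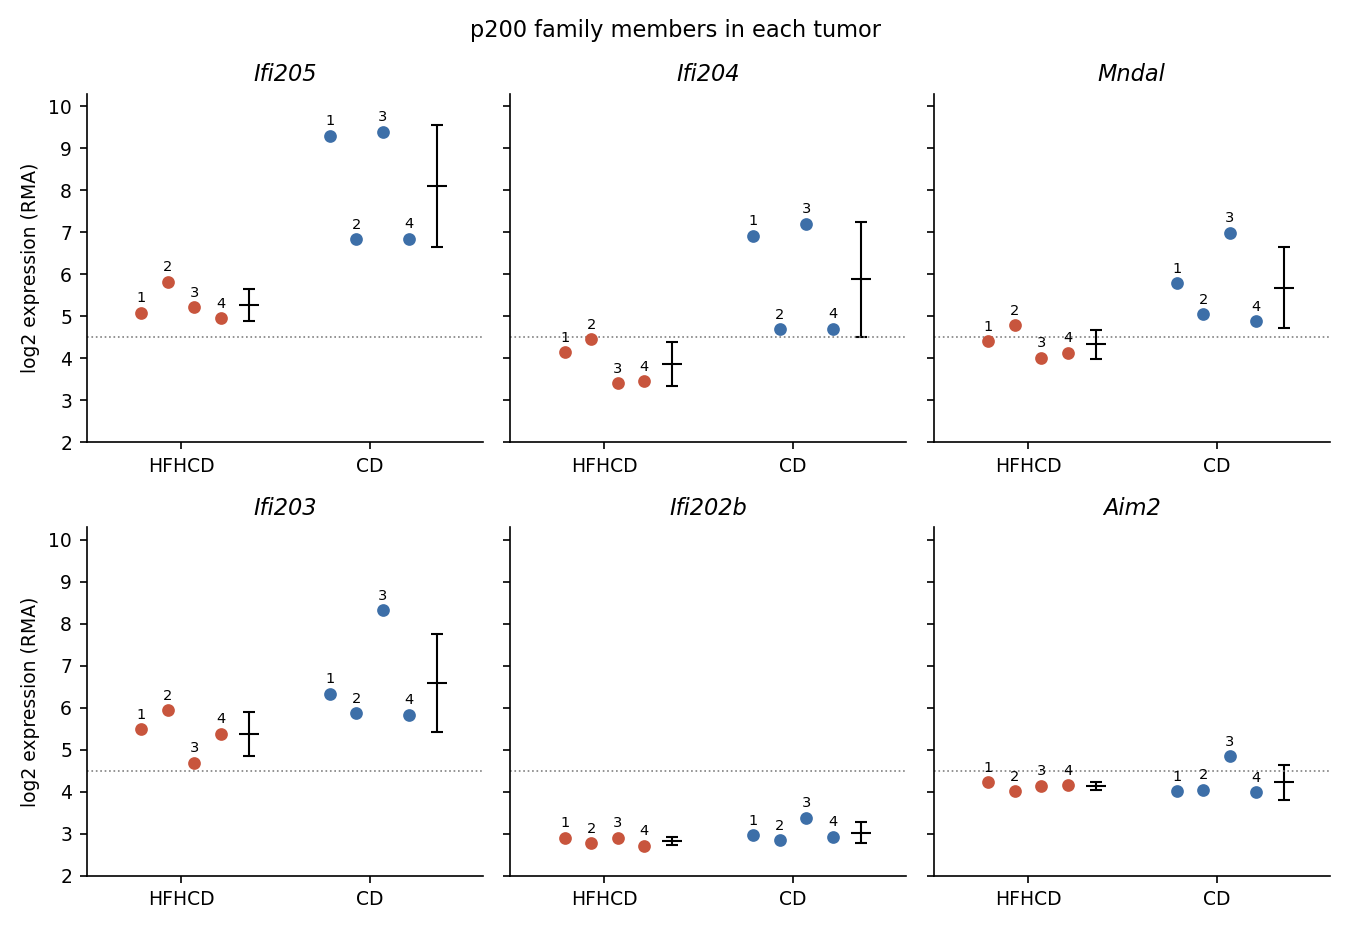
Log2 value of each of the 6 members in every tumor (points), HFHCD left of CD, with the mean and SD of the 4 tumors of each diet. Ifi205, Ifi204 and Mndal do not overlap between diets, and CD 3 is the highest tumor in every panel.

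Ifi202b and Aim2 were dim on both diets. Ifi202b, the gene of p202, had 2.90, 2.77, 2.90 and 2.71 in HFHCD tumors 1 to 4, against 2.96, 2.84, 3.38 and 2.93 in CD tumors 1 to 4. Its values were among the lowest on the arrays, whose range was 2.22 to 14.05, and its difference was -0.20 (SE 0.13), or -0.09 without CD 3. Aim2, the inflammasome sensor, had 4.23, 4.01, 4.14 and 4.15 in HFHCD tumors 1 to 4, against 4.01, 4.05, 4.85 and 3.98 in CD tumors 1 to 4. Aim2 passed the dim level in CD 3 alone, and the other 7 tumors ran from 3.98 to 4.23. Its difference was -0.09 (SE 0.19), and 0.12 without CD 3. At such values a low level and background are hard to tell apart, and a difference between diets in these 2 genes may be understated.

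Among themselves the members ranged from steep to flat profiles. Likeness was measured as the root mean square difference between the log2 profiles of 2 genes over the 8 tumors, each centred on its own mean. It was 0.26 between Mndal and Ifi203, 0.47 between Ifi205 and Ifi204, and 0.54 between Ifi204 and Mndal. Ifi202b and Aim2 were 0.15 apart, both varying little outside CD 3 and both highest there. Ifi205 and Aim2 were the least alike of the 15 pairs, at 1.59. The members did not fall into separate groups, as Mndal lay nearer to Ifi202b (0.76) and Aim2 (0.77) than to Ifi205 (0.89).

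All 6 members had their highest value in CD 3, as did 13.1% of all genes. In 5 of 6 members, Aim2 being the exception, CD 1 and CD 3 were the highest pair of the 8 tumors, as in 7.50% of all genes. Within HFHCD, tumor 2 was the highest for Ifi205, Ifi204, Mndal and Ifi203. The mean over the 6 members was 4.37, 4.63, 4.06 and 4.13 in HFHCD tumors 1 to 4, against 5.88, 4.89, 6.69 and 4.86 in CD tumors 1 to 4. Without CD 1 and CD 3 the differences were -1.57 for Ifi205 (SE 0.22), -0.83 for Ifi204 (SE 0.28), -0.63 for Mndal (SE 0.20) and -0.48 for Ifi203 (SE 0.28), and limma still called all of these but Ifi203, with 7.20% of all genes called lower. The CD arm then holds 2 tumors.

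The 7 other PYHIN genes measured were lower in 4 cases and higher in 0, with a median log2 difference of -0.48. Over all genes 3.91% were lower. By the methods' t-test 1 of the 7 was lower, against 3.39% of all genes. In 0 of them did all HFHCD values lie below all CD values, as in 2.27% of all genes. Ifi211, the gene that RefSeq also names Mnda, had 6.16, 7.02, 5.05 and 5.62 in HFHCD tumors 1 to 4, against 8.65, 7.10, 9.20 and 6.77 in CD tumors 1 to 4. It was 3.91-fold lower in HFHCD tumors, a log2 difference of -1.97 (SE 0.58), with HFHCD 2 above CD 4. The PYHIN genes Ifi207 and Ifi209 differed by -1.30 (SE 0.54) and -1.10 (SE 0.42). Ifi206 differed by -0.48 (SE 0.19), at values of 2.84 to 3.02 in HFHCD tumors and 2.95 to 4.01 in CD tumors, all under the dim level. None of the 4 was called without CD 1 and CD 3, where Ifi211 differed by -0.97 (SE 0.45). Ifi213 (-0.37), Ifi208 (-0.22) and Ifi214 (0.07) did not pass.

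The sequence sets shown above and the diet differences can be set side by side. In the first set the differences were -2.82 for Ifi205, -1.97 for Ifi211 and -1.30 for Ifi207. In the second they were -1.34 for Mndal and -1.22 for Ifi203. In the third they were -0.22 for Ifi208, -0.37 for Ifi213 and -0.48 for Ifi206, all 3 with medians under the dim level. Ifi209, with no match to any of the motifs in its window, differed by -1.10. Ifi214, Ifi213 and Ifi208, with a match, did not pass, and all 3 lay under the dim level in every tumor. Copies of this family are close in sequence, and how far the probes of one gene also bind RNA of another is not given in the sources used here, so values of neighbouring copies may share signal.

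**Figure D3:**
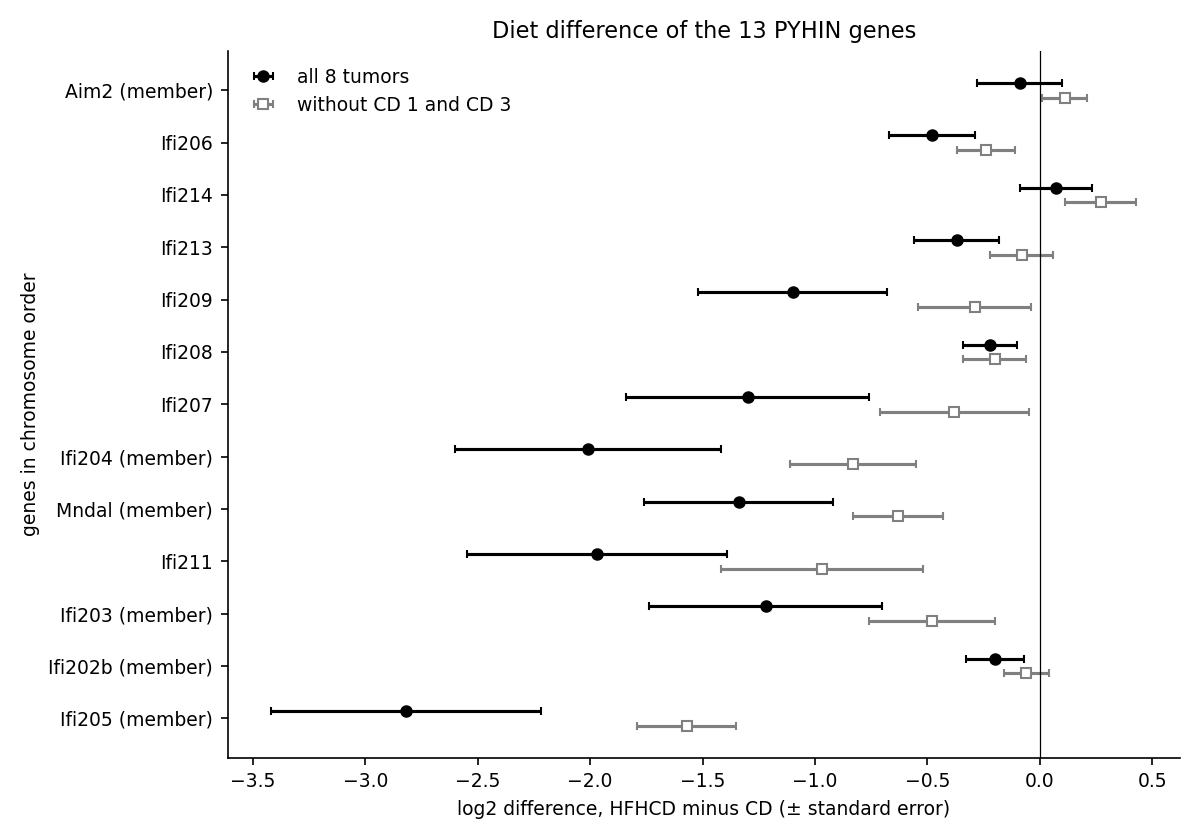
Log2 difference, HFHCD minus CD, of the 13 PYHIN genes in chromosome order, with standard errors (bars). Black circles are from all tumors, and grey open squares are from the setting without CD 1 and CD 3. Members are marked in the gene labels. With all tumors, Ifi205 at the end of the cluster has the largest difference (-2.82), and Aim2 at the other end differs by -0.09.

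The genes that flank the family showed no such difference. Of 7 neighbours outside the family, 0 were lower and 0 higher, with a median log2 difference of -0.02 and all 7 medians under the dim level. Ackr1, which encodes the atypical chemokine receptor of red cells and venules, differed by -0.04 (SE 0.12). Crp, the C-reactive protein gene, differed by 0.11 (SE 0.09), Fcer1a, a chain of the high-affinity IgE receptor, by -0.05 (SE 0.10), and Apcs, the serum amyloid P gene, by -0.03 (SE 0.10). At such dim values a difference may be understated.

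**Figure D4:**
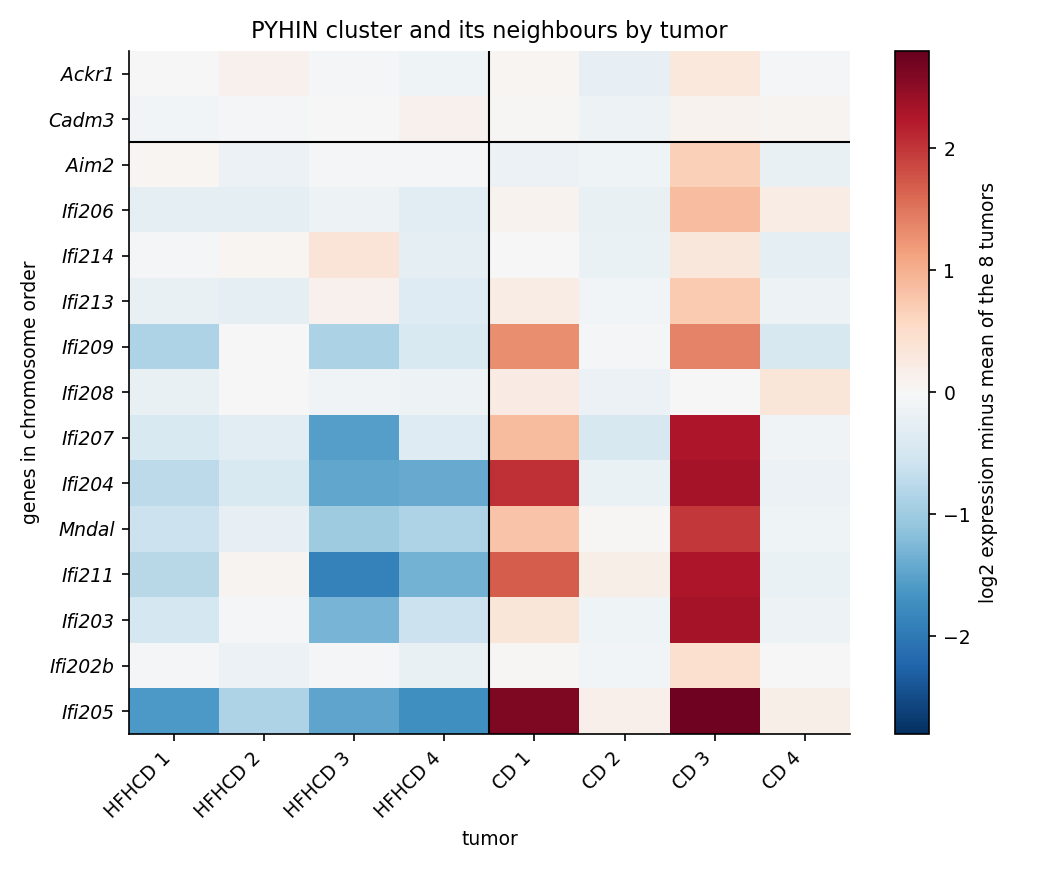
Log2 value of each PYHIN gene and of Ackr1 and Cadm3, which precede the cluster (Cadm3 shown for its position), in each tumor minus that gene's mean over the 8 tumors (color), in chromosome order, HFHCD tumors left of CD tumors. CD 1 and CD 3 carry the highest values over most of the family, and the rows of Ackr1 and Cadm3 are near 0.

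The partners of these proteins were described from lists of pathway genes. Of 10 genes of the AIM2 inflammasome, 2 were lower and 1 was higher, with a median of -0.19. Casp1, the inflammatory caspase that AIM2 activates, had 4.67, 4.75, 4.06 and 4.44 in HFHCD tumors 1 to 4, against 5.85, 5.31, 6.67 and 5.01 in CD tumors 1 to 4. It was 2.34-fold lower in HFHCD tumors without overlap (-1.23, SE 0.32). Casp4, which encodes mouse caspase-11, was lower by -0.43 (SE 0.17). Casp8, an apoptotic caspase that can join the same complex, was higher by 0.40 (SE 0.13). Gsdmd, the pore-forming target of these caspases, differed by -0.37 (SE 0.20) and did not pass.

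Of 10 genes of cytosolic DNA sensing through cGAS and STING, 2 were lower and 0 higher. These were Irf7, the interferon regulatory factor that amplifies type I interferon (-1.01, SE 0.31), and Zbp1, a sensor of Z-form nucleic acids (-1.69, SE 0.55). Sting1, the adaptor itself, differed by 0.18 (SE 0.11) and did not pass. Of 14 interferon receptor and signalling genes, 3 were lower, namely the transcription factor genes Irf1 (-0.80) and Irf8 (-1.05) and the receptor chain gene Ifngr1 (-0.27), and Socs3, a feedback inhibitor of cytokine signalling, differed by -0.34 and did not pass. Of 12 interferon genes, 0 were lower and 0 higher. Ifng, which encodes interferon gamma, differed by 0.10 (SE 0.08), and Ifnb1, which encodes interferon beta, by -0.16 (SE 0.08), both at values under the dim level in every tumor. Ifnl2 (0.27) and Ifna4 (0.46) did not pass either.

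Other interferon-stimulated genes differed in the same direction as the 4 members. Of 25 antiviral genes, 10 were lower and 0 higher, with a median of -0.54. Usp18, which removes ISG15 from proteins, was lower by -1.02, the nucleotide kinase gene Cmpk2 by -0.92, the RNA sensor gene Ifih1 by -0.82 and the RNA-binding Ifit1 by -0.80. Of 12 interferon-inducible GTPases, which act against vacuoles of intracellular microbes, 11 were lower and 0 higher, with a median of -1.59. Without CD 1 and CD 3 these counts were 6 antiviral genes and 9 GTPases lower, against 7.20% of all genes. Ifi47 was lower by -2.02, Gbp2 by -1.99, Gbp3 by -1.75 and Irgm1 by -1.14. CD 1 and CD 3 were the highest pair for 1 of the 12 GTPases and for 12 of the 25 antiviral genes, against 5 of the 6 members. The mean over the GTPases was 5.64, 7.19, 5.16 and 6.06 in HFHCD tumors 1 to 4, against 6.95, 7.19, 8.76 and 7.28 in CD tumors 1 to 4. HFHCD 2 thus lay at the level of CD 2 for the GTPases. For the mean of the members it lay under every CD tumor, but Ifi203 was higher in HFHCD 2 than in CD 2 and CD 4. For the mean of the 7 other PYHIN genes, HFHCD 2 (4.25) lay just above CD 2 (4.22).

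The genes with profiles most like that of Ifi205, by the root mean square difference over the 8 tumors, were Dpt, the matrix protein dermatopontin (0.42), Mup13, a major urinary protein (0.45), Dcn, decorin (0.46), Retnla, a secreted protein of alternatively activated macrophages (0.50), and Col3a1, a fibrillar collagen (0.55). Dpt differed by -2.15 and Dcn by -2.22. Mup13 belongs to a family of near-identical copies and its value is uncertain. Nearest to the flat profile of Aim2 were Hdac7, Trbj2-2, Cxcr6 and Setbp1 (0.09 each) and Cyp2b19 (0.10). Hdac7 encodes a histone deacetylase, Cxcr6 a chemokine receptor of T cells, Trbj2-2 a joining segment of the T cell receptor beta chain and Cyp2b19 a cytochrome P450. A small distance between profiles that vary this little says little. Like Aim2, Hdac7, Trbj2-2 and Cyp2b19 stood high in CD 3.

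Markers of some host cell types moved with the members. In a whole tumor fewer cells of a type, a smaller share of the tissue and less RNA per cell cannot be told apart. By flow cytometry in this model, the paper reported more leukocytes in HFHCD tumors, and a higher share of myeloid cells among them at sacrifice. That is a measure of cells and not of RNA. Of 18 monocyte and macrophage markers, 11 were lower and 0 higher, with a median of -0.85. Their mean level was 5.68 to 6.22 in HFHCD tumors and 7.29, 6.32, 7.61 and 6.21 in CD tumors 1 to 4, so CD 1 and CD 3 were highest here too, and they were the highest pair for 15 of the 18. Ctss, the lysosomal protease cathepsin S, was lower by -1.59, the monocyte chemokine receptor gene Ccr2 by -1.34, the integrin gene Itgam by -1.26 and the growth factor receptor gene Csf1r by -0.79. Of 13 dendritic cell and MHC class II markers, 6 were lower, with means of 5.03 to 5.62 in HFHCD tumors and 5.63 to 6.54 in CD tumors. H2-Aa differed by -2.04, H2-Ab1 by -1.91, Cd74, the invariant chain, by -1.66 and Siglech, under the dim level in every tumor, by -0.34.

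Of 12 fibroblast markers, 9 were lower, with means of 5.55 to 5.72 in HFHCD tumors and 7.23, 6.33, 7.67 and 6.23 in CD tumors 1 to 4. Col3a1 was lower by -2.01, the matrix gene Postn by -1.31 and Lum by -0.94. Of 13 skeletal muscle markers, 9 were lower, with means of 5.23 to 5.64 in HFHCD tumors and 7.02, 5.99, 7.11 and 5.51 in CD tumors 1 to 4, and the muscle myosin gene Myh4 differed by -2.87, Acta1 by -1.97, Actn3 by -1.04 and Myh1 by -0.87. Of 15 T and NK cell markers, 3 were lower (Trac by -1.58, Klrk1 by -0.50 and Cd2 by -0.40), and their mean was 4.26 to 4.42 in HFHCD tumors and 4.63, 4.43, 5.73 and 4.42 in CD tumors 1 to 4. Without CD 1 and CD 3, 4 of 18 macrophage, 3 of 13 dendritic cell and 8 of 12 fibroblast markers were lower. So were 3 of 13 muscle and 3 of 15 T and NK cell markers, against 7.20% of all genes. In that setting 2 muscle markers and 1 T and NK cell marker were higher, against 7.34% of all genes. The part of these cell types in the members' differences was not tested.

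In the other marker lists few or no genes passed. Of 6 adipocyte markers 2 were lower (Fabp4 by -1.08 and Retn by -0.48), of 10 endothelial markers 1 (Pecam1 by -0.31), and of 9 neutrophil, 9 keratinocyte and 6 B cell markers 0. All 9 keratinocyte markers had a difference below 0, with a median of -0.43, and their mean was 5.02, 4.24, 4.21 and 4.59 in HFHCD tumors 1 to 4, against 4.70, 5.01, 6.41 and 4.39 in CD tumors 1 to 4. CD 3 was thus highest here as it was for the members, and the keratin gene Krt10 differed by -1.96 and Lor, which encodes the cell envelope protein loricrin, by -0.93. The part of these cells was not tested either. B cell means were 3.80 to 3.98 in HFHCD tumors and 3.75 to 3.99 in CD tumors, with every marker's median under the dim level, and neutrophil means were 3.94 to 4.02 in HFHCD tumors and 3.90 to 4.14 in CD tumors. The melanocyte lineage markers were bright in every tumor, with means of 11.38 to 11.48 in HFHCD tumors and 11.20 to 11.40 in CD tumors, the lineage of the labelled tumor. Of 11 such markers 2 were higher, the pigment gene Oca2 by 0.46 and the melanocortin receptor gene Mc1r by 0.42.

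**Figure D5:**
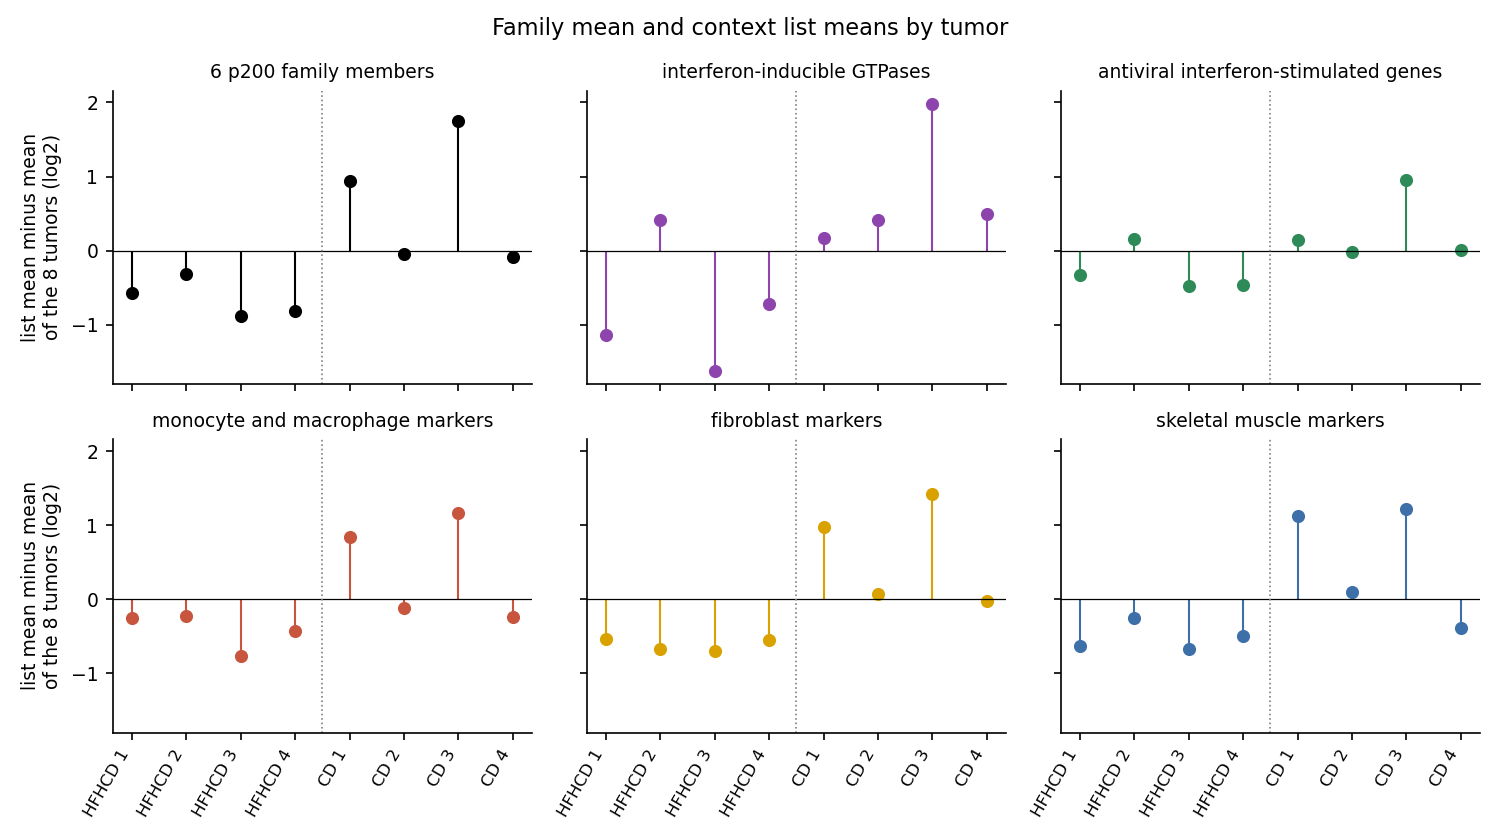
Mean log2 value of the 6 members, the GTPases, the antiviral genes and the macrophage, fibroblast and muscle markers in each tumor, minus the mean of that list over the 8 tumors (points with stems), HFHCD left of CD. The members, whose means are 4.06 to 4.63 in HFHCD tumors and 4.86 to 6.69 in CD tumors, stand highest in CD 1 and CD 3, and so do the macrophage, fibroblast and muscle markers.

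Correlations between tumors over all genes were 0.991 to 0.994 within HFHCD and 0.974 to 0.990 within CD. A gene's SD had a median of 0.136 in HFHCD and 0.197 in CD. Over all genes CD 1 was the highest tumor for 6358 and CD 3 for 3238. Array medians ran from 5.04 to 5.21. The labels give no scan or extraction batch, so a batch could not be examined. By the methods, 4 tumors per diet were collected, so the spread between arrays is that between tumors, and whether any came from the same mouse is not stated.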

How the data were processed

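The members and gene lists were chosen with earlier results of these data known. The authors deposited log2 values, for which the submitters' notes list RMA with Affymetrix Expression Console (versions not given in the sources used here). Titles that name HFD were read as HFHCD. Tests ran on the 24675 of 25429 probe sets that carry a symbol, and 754 were unnamed. The number of tumors limits precision.

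The diets were compared with limma 3.58.1 (lmFit, eBayes) in R 4.3.3 on all 8 arrays, with no covariate, filter or rescaling. A gene counted as called below an unadjusted p of 0.05, and Benjamini-Hochberg adjustment ran over all named genes. The methods' t-test, two-sided, used the same values. Scripts were tested on simulated data.

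Named genes are all members, all other measured PYHIN genes, up to 4 per list with the smallest limma p, and the 5 nearest profiles of the members with the largest and smallest difference, predicted genes left out. Promoter sequences came from RefSeq (GRCm38.p6). Python 3.11.15 and matplotlib 3.10.9 drew the plots. Other settings tried were a replicate block, each array left out, CD 1 and CD 3 left out together, a trended and robust prior, the methods' t-test, weighted arrays, median, quantile or cyclic loess scaling, a dim filter (above the 40th percentile in at least 4 arrays) and all probe sets. Setting members' values under that percentile to it was added after the values were seen.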

Additional observations from a re-analysis of the deposited data

Results flagged for a closer look

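A tumor was picked out where its gap to the nearest other tumor of its diet, divided by the range of that diet, passed Dixon's critical value for 4 samples. Of 222 groups of 4 tumors, 27 met this, 16 of them with CD 3 as the high tumor. Chance would pick about 1 in 20 groups, or 11. The genes are not independent of each other, so nothing is read from 27 against 11. Hdac7, Trbj2-2 and Cyp2b19 were listed because their profiles are like that of Aim2, so their flags in CD 3 follow from its own.

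Among members, Aim2 was 4.85 in CD 3, against 3.98 to 4.05 in the other CD tumors. Among other PYHIN genes, Ifi207 was 4.02 in HFHCD 3, against 5.15 to 5.28 in the other HFHCD tumors. In CD 3 the high values were 6.78 for Gsdmd, 8.63 for Irf1, 8.60 for Usp18, 8.43 for Cmpk2, 9.85 for Gbp2, 11.58 for Cd74, 7.82 for Trac, 5.91 for Cd3g, 5.42 for Cidec, 6.76 for Hdac7, 4.28 for Trbj2-2 and 4.07 for Cyp2b19. List means that stood high in CD 3 were 8.20 for interferon receptors and signalling, 7.84 for antiviral genes and 5.73 for T and NK cell markers.

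In other tumors, Crp was 3.59 in CD 4 and Cd79b 4.78 in CD 1. In HFHCD 2, Irf8 was 6.01, Myh4 5.81 and the mean of the cGAS and STING genes 6.83. Sting1 was low in HFHCD 1 at 8.34, and Trac was low in HFHCD 3 at 3.72. The mean of the chromosome 1 neighbours was low in CD 2 at 3.31, and that of B cell markers was high in HFHCD 4 at 3.98 and in CD 1 at 3.99.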

How the results depend on the processing

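Ifi205, Ifi204 and Mndal were lower and past the threshold in every setting tested. Ifi203 was lower in every setting and lost its call with the replicate block, with the methods' t-test, with array weights, without CD 1 and CD 3, and without HFHCD 1, HFHCD 3, HFHCD 4 or CD 1. Aim2 (-0.09) changed sign, to 0.12 without CD 3 and to 0.11 without CD 1 and CD 3, and was not called in any setting. The filter on dim genes left 4 members and removed Ifi202b and Aim2. Leaving out CD 1 and CD 3 gave -1.57 for Ifi205, -0.83 for Ifi204 and -0.55 for the median of the members, with 1776 genes lower and 1810 higher. In that setting the counts lower were 0 for other PYHIN, 1 for the AIM2 inflammasome, 1 for cGAS and STING, 6 for antiviral genes, 4 for macrophages, 3 for dendritic cells, 2 for endothelium, 3 for muscle and 0 for adipocytes, and the counts higher were 2 for interferon ligands, 1 for T and NK cells, 1 for neutrophils and 2 for muscle. Array weights gave 1582 genes lower and 1928 higher, and the dim filter gave 632 lower out of fewer genes tested. Leaving out 1 array gave 632 (without HFHCD 1) to 1767 (without CD 1) genes lower and 839 (without HFHCD 2) to 1942 (without CD 1) higher. No called difference or count changed direction. Setting values under the dim level to that level, chosen after seeing the data, gave -1.37 for Ifi204 and -1.11 for Mndal. The cause of the shifts between settings was not tested.

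Replicate numbers did not pair the tumors: deviations of same-numbered tumors correlated at 0.27, -0.03, -0.26 and 0.05. With the replicate block 3 members were lower, 981 genes were lower and 1110 higher, and 2 endothelial markers were lower. With 4 tumors per diet, values under the dim level are close to background, and differences there may be understated.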
